A study of Mus musculus with 78 samples.

Results

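Hlf, Tef, Dbp and Nfil3 encode the clock output factors of the bZIP class, and they are 4 of the 53843 annotated genes on which the peaks were read, 21755 of them protein-coding. They were taken by name, and for each gene the peaks within 3 kb of the transcription start site (TSS, the 5' end of the gene record) and those in the gene body were read in every peak list. The series holds 78 samples of synchronised C2C12 cells, a mouse myoblast line. By the study's methods the cells were differentiated to myotubes before they were synchronised. Of the samples 72 have a peak list, while the 6 HA input samples have none and were not used. Chromatin was collected at 12, 16, 20, 24, 28 and 32 h after a serum shock, and 4 profiles with 3 biological replicates per time point give 18 libraries each.

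Bio-EZH1 is the pulldown, with streptavidin, of a biotin-tagged EZH1α expressed together with the ligase BirA in cells whose own Ezh1 was knocked down, and SUZ12 was precipitated by antibody from the same line according to the study's methods. H3K27me3 was profiled in C2C12 cells without the tag. For HA-EZH1 the labels give C2C12 and neither an antibody nor the modified line, and the methods describe HA-tagged EZH1α lines without tying one of them to these libraries. A tagged protein in a knockdown line is a limit of the Bio-EZH1 and SUZ12 profiles as a model of the unmodified cell. Signs that the cells are muscle could be read only as absence of the repressive mark. Myod1, Myog, Des and Tnnt3 had an H3K27me3 promoter peak in 0 of 18 libraries, whereas Ckm had one in 18 and Acta1 in 15. Only 24.4% of protein-coding genes had such a peak, with a q-value under 0.01, in all 3 replicates of 1 or more time points. Absence was also seen at the housekeeping genes Actb, Gapdh and Rplp0, so it does not tell muscle from other cells.

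HLF, TEF and DBP are the PAR bZIP proteins, transcription factors with a proline and acidic amino acid rich stretch beside a basic leucine zipper, and they activate genes through a DNA element called the D-box. NFIL3, also called E4BP4, binds the same element and represses, so that the balance of these factors carries clock time into metabolism in liver and other tissues. In the known circuit CLOCK and BMAL1 drive Dbp through E-boxes, while REV-ERB and ROR receptors act on Nfil3. EZH1 is a catalytic subunit and SUZ12 a core subunit of Polycomb repressive complex 2 (PRC2), which writes H3K27me3, a histone mark of silenced genes that in mammals is found at CpG-rich promoters of developmental regulators.

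The promoter sequences of the 4 genes are shown first because their CpG content differs and because peaks were found at the Hlf promoter almost alone. They are those of RefSeq on GRCm38.p6 and span 250 bases before to 50 bases after the RefSeq start, all 4 genes matched, and Tef has 2 starts. Capitals mark an E-box (CACGTG), a D-box (TTACGTAA, TTATGTAA or its complement TTACATAA), a cAMP response element (TGACGTCA) or the 16 letters AGAACTACAACTCCCA that are described with the Car11 site, all sought on both strands. The strand is minus for Hlf, at chr11:90390868-90391167, and for Nfil3, at chr13:52980990-52981289. It is plus for Tef, at chr15:81802423-81802722 and chr15:81811164-81811463, and for Dbp, at chr7:45704997-45705296.
Hlf promoter: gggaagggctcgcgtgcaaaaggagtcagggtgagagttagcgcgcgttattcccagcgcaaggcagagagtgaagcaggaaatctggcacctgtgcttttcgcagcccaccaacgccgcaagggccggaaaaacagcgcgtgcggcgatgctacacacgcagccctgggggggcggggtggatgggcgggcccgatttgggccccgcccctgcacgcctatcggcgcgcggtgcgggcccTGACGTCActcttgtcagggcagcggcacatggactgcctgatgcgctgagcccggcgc
Tef promoter 1: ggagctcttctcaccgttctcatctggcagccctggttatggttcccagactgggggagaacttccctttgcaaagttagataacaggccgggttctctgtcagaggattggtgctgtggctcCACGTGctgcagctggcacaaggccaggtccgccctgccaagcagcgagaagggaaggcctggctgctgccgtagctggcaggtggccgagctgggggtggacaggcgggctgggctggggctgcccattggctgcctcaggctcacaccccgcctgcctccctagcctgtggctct
Tef promoter 2: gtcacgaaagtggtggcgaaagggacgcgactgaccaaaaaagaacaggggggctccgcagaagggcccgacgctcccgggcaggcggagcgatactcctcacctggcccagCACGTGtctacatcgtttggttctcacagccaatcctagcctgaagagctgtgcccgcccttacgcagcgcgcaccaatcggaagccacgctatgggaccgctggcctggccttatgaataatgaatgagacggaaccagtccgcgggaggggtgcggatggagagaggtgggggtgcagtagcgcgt
Dbp promoter: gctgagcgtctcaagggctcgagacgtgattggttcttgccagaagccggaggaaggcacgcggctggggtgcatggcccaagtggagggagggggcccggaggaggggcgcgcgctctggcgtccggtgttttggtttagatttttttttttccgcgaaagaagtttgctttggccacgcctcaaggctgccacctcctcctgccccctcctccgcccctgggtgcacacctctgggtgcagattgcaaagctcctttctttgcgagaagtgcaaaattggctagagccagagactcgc
Nfil3 promoter: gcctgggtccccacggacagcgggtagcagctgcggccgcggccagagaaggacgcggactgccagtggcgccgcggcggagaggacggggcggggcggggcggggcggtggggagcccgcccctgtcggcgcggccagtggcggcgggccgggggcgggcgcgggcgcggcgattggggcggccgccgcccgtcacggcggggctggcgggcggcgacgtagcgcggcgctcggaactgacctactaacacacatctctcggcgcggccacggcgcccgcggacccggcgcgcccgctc

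The Hlf stretch held 30 CpG dinucleotides, more than 88.3% of the 32851 promoters of the same length, and the cAMP response element lay 9 bases before the start, an element found in 1.79% of these promoters. The Nfil3 stretch was the richest of the 5 with 54 CpGs, more than 99.7% of promoters. Dbp had 18 CpGs, and the first and second Tef starts had 9 and 25, against a median of 7 over all promoters. Each Tef stretch held 1 E-box, which 7.15% of promoters hold, and no D-box, held by 1.06%, was found in the 5 stretches. A match of letters is a description of the sequence and not a measured binding site.

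Hlf carried a promoter peak in all 18 Bio-EZH1, all 18 SUZ12 and all 18 H3K27me3 libraries, and in 1 of 18 HA-EZH1 libraries. Tef had a promoter peak in none of the 72 libraries, and Dbp and Nfil3 had one in a single HA-EZH1 library each. Among protein-coding genes 7.39% had a promoter peak in all 18 Bio-EZH1 libraries, 5.78% in all 18 SUZ12 libraries and 14.6% in all 18 H3K27me3 libraries, and 977 genes or 4.49% had one in all 54 of these. No promoter peak in any of the 72 lists was seen for 39.5% of protein-coding genes, and a promoter peak in 1 list for 8.75%. A gene counted as bound at a time when each of its 3 replicates held a promoter peak with a q-value under 0.01. By this rule Hlf was bound at all 6 time points in Bio-EZH1 (7.19% of protein-coding genes), SUZ12 (4.69%) and H3K27me3 (10.1%). In HA-EZH1 it was bound at 0 time points, and Tef, Dbp and Nfil3 were bound at 0 time points in each of the 4 profiles.

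**Figure D1:**
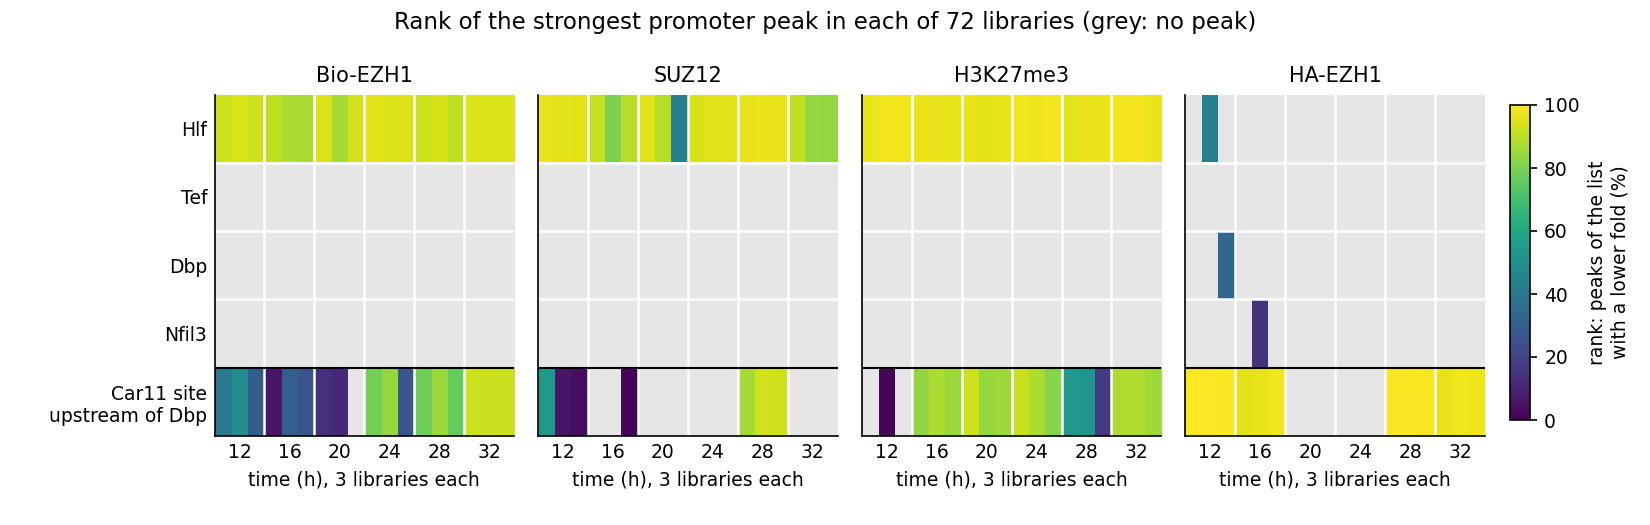
Each cell is a library, ordered by time (h) along the horizontal axis with 3 libraries per time point, and its colour is the rank of the strongest promoter peak, the percent of peaks in the same list with a lower fold. Hlf is filled in all 54 Bio-EZH1, SUZ12 and H3K27me3 libraries, the row of Tef is grey throughout, those of Dbp and Nfil3 are grey but for 1 HA-EZH1 library each, and the lowest row shows the peak at Car11, upstream of Dbp.

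The lists differ in length, which bears on presence and rank. They held 8539 to 19827 peaks in Bio-EZH1, 21419 to 40379 in SUZ12, 45120 to 70796 in H3K27me3 and 2347 to 16365 in HA-EZH1, and the read depth is unknown. HA-EZH1 lists of 20 h and 24 h stood apart, with 9124 to 16365 peaks of which 2.33 to 3.56% lay within 3 kb of a protein-coding TSS, whereas the 12 lists of the other times had 2347 to 5234 peaks and 24.4 to 70.5% near a TSS. As a check of the profiles, the Polycomb targets Hoxd10 and Neurog1 were bound at all 6 time points in Bio-EZH1, SUZ12 and H3K27me3, and the housekeeping genes Actb, Gapdh and Rplp0 had no promoter peak in these 3 profiles. HA-EZH1 did not part the 2 kinds of gene in this way, since Actb had a promoter peak in 9 libraries and was bound at 3 time points, Gapdh had one in 4 and Rplp0 in 2, while Hoxd10 was bound at 2 time points and Neurog1 at 3.

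Hlf (ENSMUSG00000003949.16) lies on the minus strand at chr11:90336536-90390895 in GRCm38, the assembly of mm10. It stands alone, with the nearest protein-coding genes 85.6 kb upstream (Stxbp4) and 57.9 kb downstream (Mmd). The gene record has 4 exons in its main transcript, of which exon 1 ends 646 bp from the TSS and intron 2 runs from 3.11 kb to 44.9 kb. Bio-EZH1 summits lay between 276 and 732 bp downstream of the TSS with a median of 662.5 bp, and SUZ12 summits between 293 and 769 bp with a median of 660.5 bp. The 2 medians therefore fell just past the end of exon 1, and the first 200 bases of intron 1 held 24 of the 36 summits of the 2 profiles. This stretch, chr11:90390050-90390249 on the minus strand of GRCm38, is shown because it is where the Polycomb proteins peaked.
Hlf intron 1 start: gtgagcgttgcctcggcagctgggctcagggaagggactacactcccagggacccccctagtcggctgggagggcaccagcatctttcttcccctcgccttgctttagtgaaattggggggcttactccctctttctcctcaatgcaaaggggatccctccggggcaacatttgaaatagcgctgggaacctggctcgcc
It held 7 CpGs and none of the motifs searched, which is why it has no capitals.

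The Hlf promoter peak was among the strong peaks of its list in Bio-EZH1, where its mean fold over the background that the peak caller models was highest at 24 h and lowest at 16 h. The folds were 9.49, 10.6 and 9.81 at 12 h, 8.65, 7.14 and 6.86 at 16 h, and 11.4, 6.44 and 9.47 at 20 h. They were 13.1, 11.6 and 12.2 at 24 h, 11.4, 10.8 and 7.82 at 28 h, and 11.2, 9.52 and 10.6 at 32 h. The 3 libraries of 24 h lay above the other 15, and replicates spread most at 20 h. The peak ranked above 86.4 to 96.0% of the peaks in its list with a median of 93.4%, and it had a q-value under 0.01 in each library.

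In SUZ12 the fold at the Hlf promoter moved more widely. Folds were 8.97, 7.37 and 7.48 at 12 h, 4.31, 3.34 and 3.95 at 16 h, and 6.54, 4.95 and 3.18 at 20 h. They were 5.27, 5.56 and 5.39 at 24 h, 10.8, 13.4 and 12.8 at 28 h, and 4.13, 3.70 and 4.12 at 32 h. The libraries of 28 h and 12 h lay above all libraries of the other 4 times, and 28 h lay above 12 h without overlap. Ranks were 43.6 to 97.2% with a median of 94.6%, and the lowest belonged to replicate 3 at 20 h. At 12 h and 28 h the SUZ12 peak also reached upstream of the TSS, beginning at -1289 to -506 bp, while in the 12 libraries of the other times the strongest promoter peak began 10 to 200 bp downstream of it. In 4 of these 12, all 3 of 16 h and replicate 2 of 24 h, a separate and weaker peak lay upstream of the TSS between -1.206 and -0.62 kb, with folds of 1.92 to 2.51. H3K27me3, in contrast, had narrow ranges within each time point. Its folds at Hlf were 2.90, 3.12 and 2.98 at 12 h, 4.27, 4.36 and 4.13 at 16 h, and 4.62, 4.63 and 4.64 at 20 h. They were 4.50, 4.41 and 4.65 at 24 h, 3.90, 4.15 and 4.22 at 28 h, and 4.53, 4.71 and 4.15 at 32 h. All 3 libraries of 12 h lay below the other 15, yet the rank of the peak was 95.7 to 98.5% throughout and did not dip at 12 h.

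Most of these moves were shared with the other bound promoters of the same library. The median promoter fold, over the genes with a promoter peak in all 18 libraries, was 10.36 to 11.05 in the Bio-EZH1 libraries of 24 h and 7.77 to 7.81 in those of 16 h. For SUZ12 this median was 11.40 to 12.96 at 28 h and 3.43 to 3.67 at 32 h, and for H3K27me3 it was 2.39 to 2.46 at 12 h and 3.24 to 3.68 at the other times. Relative to the median of its library, the Hlf fold was 0.87 to 1.62 times in Bio-EZH1, 0.64 to 1.51 times in SUZ12 and 1.18 to 1.44 times in H3K27me3. It lay above the median in 12, 10 and 18 of 18 libraries of these 3 profiles in that order.

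**Figure D2:**
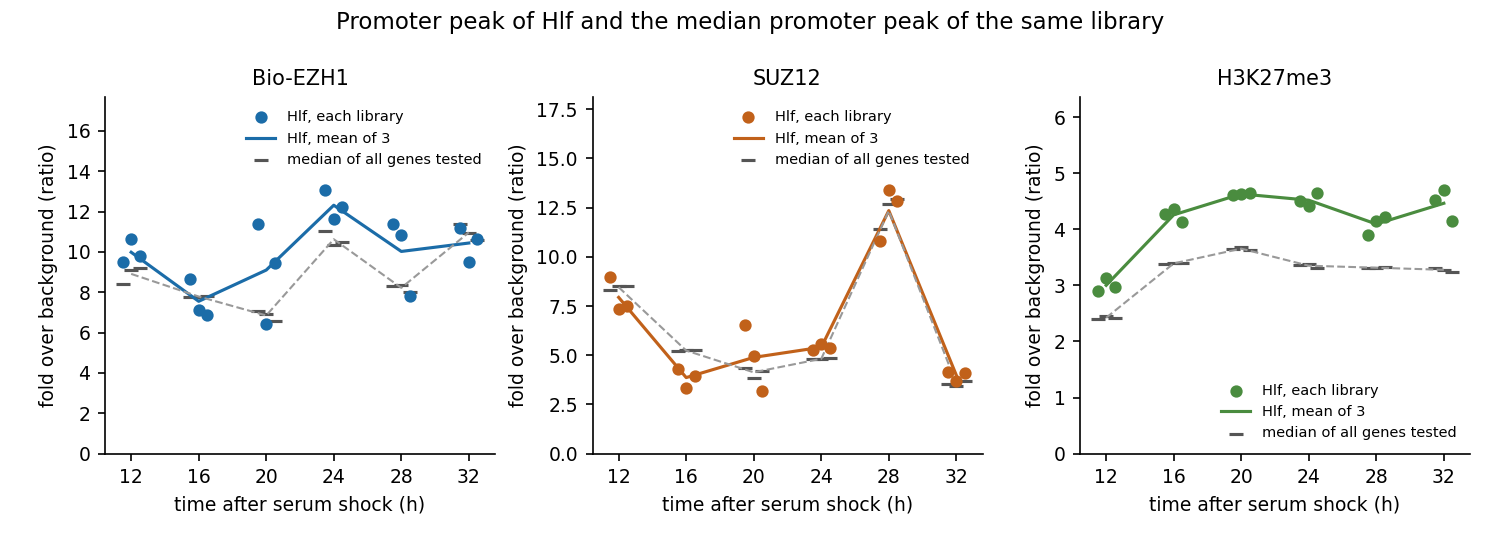
Fold over background (ratio) of the Hlf promoter peak in each library (points), its mean over 3 replicates (line) and the median promoter fold of all genes tested in the same library (grey marks, dashed mean), by time after the serum shock (h). Hlf followed the library median in SUZ12, with both highest at 28 h, and lay above it in all 18 H3K27me3 libraries.

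Whether the Hlf fold changed over time was tested on log2 folds centred on the library median with limma, adjusting over all genes tested. In Bio-EZH1 it did not pass the test (moderated F, adjusted p = 0.127, 2340 genes), where 73.7% of genes did. In SUZ12 it passed (adjusted p = 0.0360, 2231 genes), as did 93.5% of genes, with time means spanning 0.63 on the log2 scale between 20 h and 16 h, smaller than the median span of 1.703 over all genes. In H3K27me3 it also passed (adjusted p = 0.0173, 6796 genes), as did 92.6% of genes, with a span of 0.14 between 32 h and 28 h against a median of 0.47. The span at Hlf was larger than that of 14.9% of the genes tested in Bio-EZH1, 4.08% in SUZ12 and 2.13% in H3K27me3. The Hlf fold thus moved less against its library than that of most genes tested. In H3K27me3 this is the fold of 1 broad peak that reached 10.2 kb or farther downstream, not a level of the promoter alone. In Bio-EZH1 and SUZ12 Hlf lay near the library median used for centring, with median ratios of 1.12 and 1.07. The part of this in the spans was not tested. The SUZ12 call was lost without any 1 of 9 libraries, namely replicate 3 of 12 h, replicates 2 and 3 of 16 h, replicate 2 of 20 h, each replicate of 24 h and replicates 1 and 3 of 32 h, with adjusted p up to 0.168. Bio-EZH1 passed without replicate 2 of 20 h (adjusted p = 0.0063).

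The study classed rhythmic targets by their nascent RNA at 16 h and 24 h, and these times were compared directly. At Hlf the centred fold was higher at 24 h than at 16 h by 0.61 ± 0.19 on the log2 scale in SUZ12 (standard error, 3 libraries each, limma, adjusted p = 0.0273), and 12.4% of genes were called higher. This call was lost without any 1 of 5 of the 6 libraries, all but replicate 1 of 16 h, with adjusted p up to 0.102. For Bio-EZH1 the difference was 0.26 ± 0.17 (adjusted p = 0.261) and for H3K27me3 0.10 ± 0.04 (adjusted p = 0.0982), neither past the threshold, and 12.5% and 10.8% of genes were called higher in these profiles. With the folds left as deposited, the 24 h against 16 h difference in Bio-EZH1 was 0.71 (adjusted p = 0.00276), and 50.9% of the genes tested were then called higher, since the median of all genes was itself up by 0.39.

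Beyond the promoter, Polycomb peaks extended over the 5' part of Hlf and the region upstream of it. Each Bio-EZH1, SUZ12 and H3K27me3 library had peaks in the gene body, 2 to 12, 3 to 8 and 2 to 4 per library, and they covered a median of 14.4, 37.2 and 69.2% of the gene together with the promoter peak. In Bio-EZH1 the peaks gathered in 3 stretches of intron 2, at 5 to 8 kb in 15 of 18 libraries, at 11 to 13 kb in 16 and at 20 to 29 kb in 17, with median folds of 3.42, 3.70 and 3.93. A further group lay -20 to -11 kb from the TSS in 15 libraries (median fold 3.27). All 18 SUZ12 libraries had a peak over each of these 4 stretches. The stretches were read off the coverage plot and are a description. In Bio-EZH1 the promoter peak was stronger than the strongest body peak (fold 2.84 to 5.04) in all 18 libraries, whereas in SUZ12 a body peak was stronger than the promoter peak in 6 libraries, including each replicate of 32 h.

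H3K27me3 lay over Hlf as a broad domain. In the 15 libraries from 16 h on, 1 peak ran across the TSS and ended 33.3 to 34.5 kb downstream of it, inside intron 2, and it began -25.9 kb or farther upstream in 12 of them and between -10.2 and -4.72 kb in the other 3. At 12 h the domain was split in all 3 libraries, with the promoter part ending at 10.2 kb. The 3' part of the gene, from 40 to 54 kb, had H3K27me3 peaks of fold 1.93 to 2.90 in all 18 libraries, a SUZ12 peak in none of 18 and a Bio-EZH1 peak in 1.

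**Figure D3:**
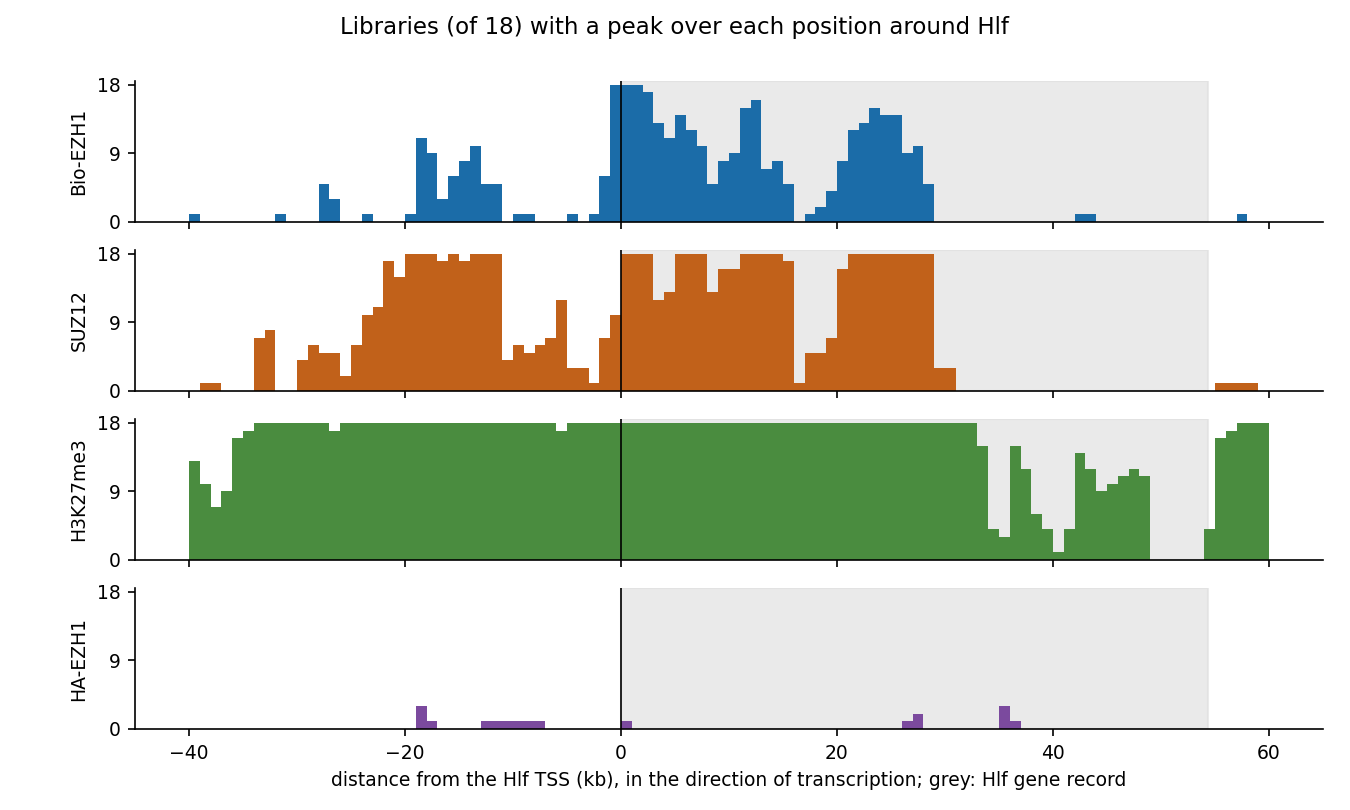
Number of libraries, of 18 per profile, with a peak over each 1 kb bin, by distance from the Hlf TSS (kb) in the direction of transcription, with the gene record in grey. H3K27me3 covers the TSS and the 5' part of the gene in all 18 libraries, with breaks in some of them, while SUZ12 and Bio-EZH1 form separate groups of peaks that end near 29 kb, and HA-EZH1 is nearly empty.

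HA-EZH1 gave few peaks at Hlf. The promoter peak belonged to replicate 2 of 12 h, with a fold of 2.74, a rank of 43.5% and a summit 244 bp from the TSS. Among all protein-coding genes 9.09% had a promoter peak in 1 of 18 HA-EZH1 libraries. Body peaks were called in 5 libraries, 1 each at 20 h and 24 h and all 3 at 28 h, and those of 28 h lay together about 35 kb into the gene (35.2, 35.0 and 35.0 kb at their starts) with folds of 3.65, 2.70 and 4.87. No Bio-EZH1 or SUZ12 library had a peak there in the plot of peaks around Hlf. From -20 to -11 kb an HA-EZH1 peak was called in 4 libraries, 2 each of 20 h and 24 h (fold 2.57 to 3.80). The lists of these times were the longest of the profile.

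Tef, the thyrotroph embryonic factor, lies on chromosome 15 (chr15:81802421-81826863, plus strand, ENSMUSG00000022389.15) and had no promoter peak in any library. Like Dbp and Nfil3 it had a promoter or body peak in 1 of 72 libraries. The Tef peak was called in HA-EZH1 replicate 2 of 12 h, 8.17 to 8.62 kb into the gene and near the second start, with a fold of 1.703, and no peak of that list had a lower fold. With TSSs of all transcripts this peak counts as a promoter peak, the only one at Tef under any setting. Gm17597, an antisense transcript whose TSS lies 0.192 kb from that of Tef, had no promoter peak in any library.

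Nfil3 is the repressor of the group (chr13:52967209-52981073, minus strand, ENSMUSG00000056749.7) and had the most CpG-rich promoter stretch. It had no peak in Bio-EZH1, SUZ12 or H3K27me3, at the promoter or in the gene body. A relation of CpG content to peaks was not tested. The single peak at Nfil3 lay 0.117 to 0.52 kb from the TSS in HA-EZH1 replicate 2 of 16 h, with a fold of 2.31 and a rank of 14.6%. The other replicates of 16 h had no peak at Nfil3.

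Dbp, the D site binding protein, is known for a strong daily rhythm in many tissues. It lies at chr7:45705088-45710203 on the plus strand (ENSMUSG00000059824.12), and its own promoter had 1 peak 1.48 to 1.89 kb downstream of the TSS in HA-EZH1 replicate 3 of 12 h (fold 2.59, rank 33.8%). Upstream of it stands Car11, which encodes a carbonic anhydrase-related protein without catalytic activity. Car11 (chr7:45699843-45704682) is transcribed in the same direction, its TSS is -5.245 kb from that of Dbp, and its promoter had a peak in 17 Bio-EZH1, 7 SUZ12, 16 H3K27me3 and 12 HA-EZH1 libraries of 18. The neighbour thus carried peaks in all 4 profiles, and the Dbp promoter had this 1 HA-EZH1 peak.

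Bio-EZH1 and SUZ12 at Car11 did not share a summit with HA-EZH1. Summits lay -5179 to -4525 bp from the Dbp TSS in 17 Bio-EZH1 libraries and -5070 to -4848 bp in 7 SUZ12 libraries, next to the Car11 TSS. The 12 HA-EZH1 summits lay -4169 to -4119 bp, farther into Car11 and within 50 bp of each other. That narrow site is in intron 2 of Car11, chr7:45700856-45701014 on the plus strand of GRCm38, and its 159 bases hold all 12 summits.
Car11 HA-EZH1 site: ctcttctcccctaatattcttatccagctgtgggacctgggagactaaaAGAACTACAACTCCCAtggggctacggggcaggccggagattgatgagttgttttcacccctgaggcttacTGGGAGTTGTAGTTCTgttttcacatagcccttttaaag
The capitals mark AGAACTACAACTCCCA and its reverse complement TGGGAGTTGTAGTTCT, 1 copy each facing each other, letters that resemble the known motif of the zinc finger factor ZNF143. These 16 letters are the longest word that the stretch holds on both strands, and they were sought elsewhere after the stretch had been read. On either strand they occur in 10 of 32851 promoters of 300 bases, or 0.0304%. Among 159-base windows centred on summits they were in 0.1298 to 0.3409% of those of the 12 HA-EZH1 libraries of 12, 16, 28 and 32 h. In the 6 libraries of 20 and 24 h they were in 0.0156 to 0.0219%. These shares rest on 6 to 12 windows per library at the former times and 2 or 3 at the latter. The Car11 window that gave the letters is counted in each of the 12 libraries and in none of the 6. The shares and their difference are therefore in part fixed by the choice of letters. The 16 letters were in no window of the 18 Bio-EZH1 libraries and in at most 0.00318% of those of any SUZ12 library.

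The HA-EZH1 peak at this site was present in every library of 4 times and in none of the other 2. Its folds were 10.1, 11.02 and 8.62 at 12 h, 4.23, 4.33 and 5.20 at 16 h, 9.88, 9.75 and 8.78 at 28 h and 5.66, 6.04 and 6.50 at 32 h, while no peak was called at 20 h or 24 h. It ranked above 95.8 to 99.8% of the peaks of its list. The HA-EZH1 peaks at the promoters and in the bodies of the 4 clock output genes had ranks of at most 92.0%, and the strongest of them, in the Hlf body at 28 h with a fold of 4.87, exceeded 2 of the 3 folds of the Car11 site at 16 h. The lists of 20 h and 24 h without this peak were the longest, and their low share of peaks near a TSS moves with its absence, a part in the result that was not tested.

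The Bio-EZH1 peak at Car11 was weak up to 20 h and strong at 32 h. Its folds were 3.14, 3.06 and 2.88 at 12 h, 2.46, 2.99 and 2.91 at 16 h, and 2.54 and 2.69 at 20 h, where the third library had none. They were 3.75, 4.70 and 2.70 at 24 h, 4.88, 5.26 and 4.18 at 28 h, and 8.09, 6.94 and 7.27 at 32 h. All 3 libraries of 32 h lay above the other 14 with a peak, at ranks of 92.0 to 92.5%. Median promoter folds over all genes tested were also high in the Bio-EZH1 libraries of 32 h (10.57 to 11.40) and 24 h (10.36 to 11.05). At the other times these medians were 6.55 to 9.21, and their part in the result was not tested. SUZ12 was called at 12 h (folds 2.94, 1.93 and 1.91), in 1 library at 16 h (1.64) and at 28 h (4.17, 6.32 and 5.90), and not at 20, 24 or 32 h. H3K27me3 was called in each library from 16 h on with folds of 2.29 to 4.05, and at 12 h in 1 library (1.69).

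**Figure D4:**
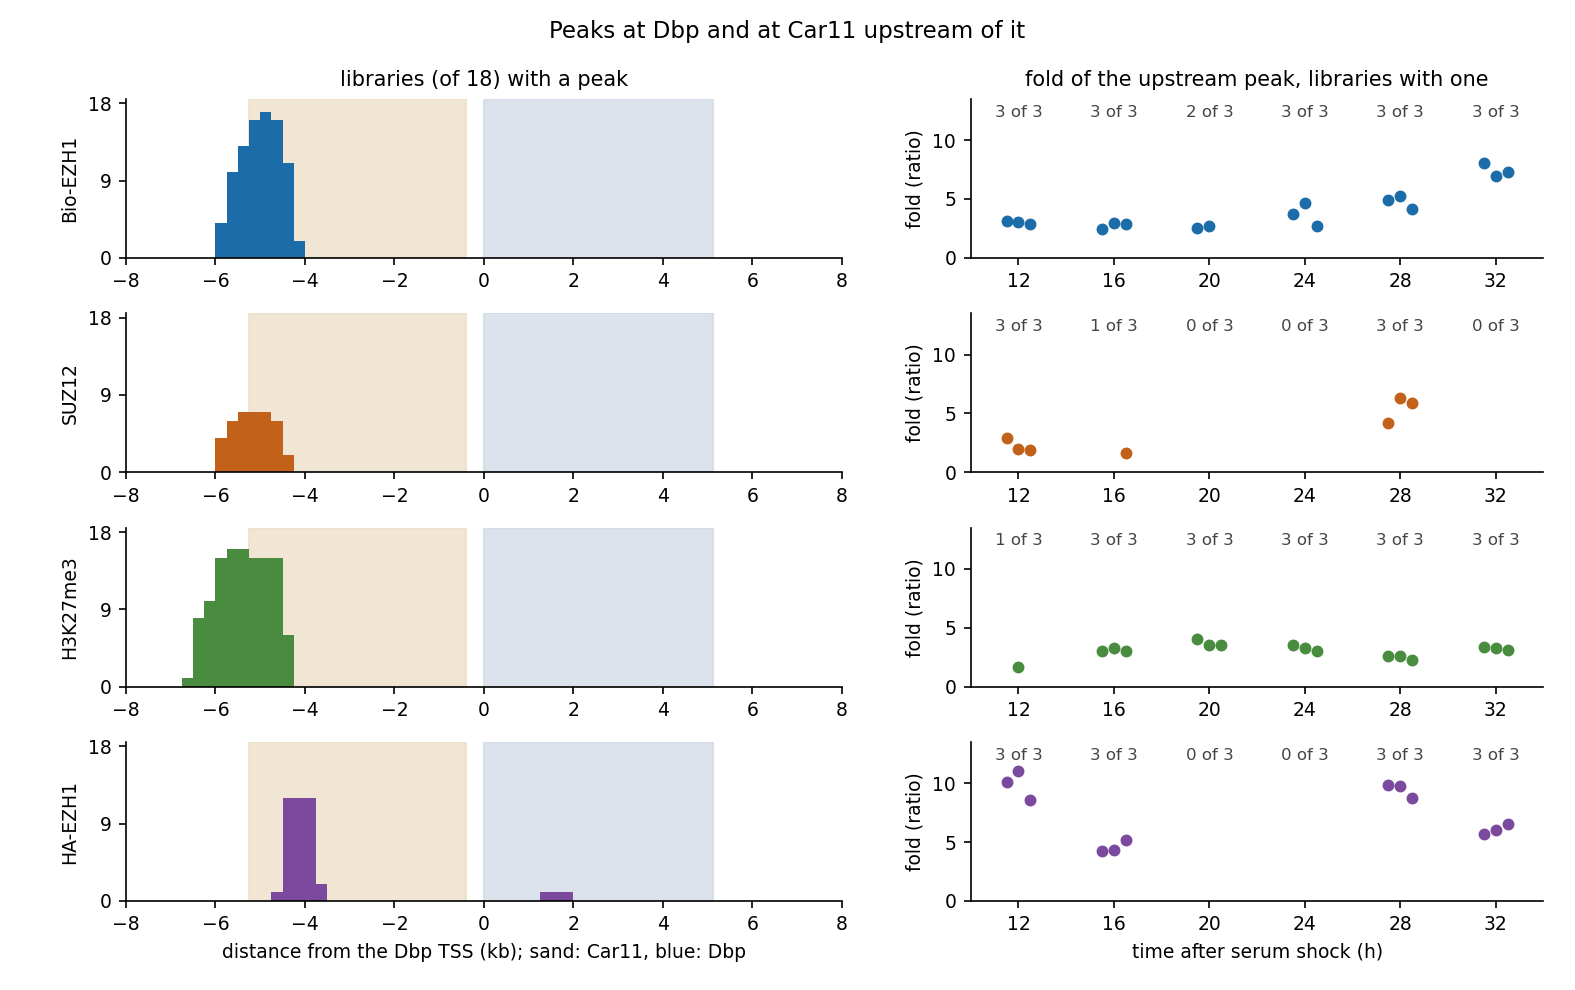
Left, number of libraries (of 18) with a peak in 250 bp bins by distance from the Dbp TSS (kb), with Car11 in sand and Dbp in blue. Right, fold (ratio) of the upstream peak in each library that has it by time (h), with the number of libraries above. The upstream peaks of all 4 profiles stop short of the Dbp gene, which holds 1 peak in a single HA-EZH1 library, the HA-EZH1 site lies nearer to Dbp than the others, and it is missing in all 6 libraries of 20 h and 24 h.

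With a window of 3 kb none of the 4 genes had peaks in 3 to 15 libraries of a profile, the range in which uneven presence over time can be tested. A window of 5 kb, chosen for this test after the peaks had been seen, takes the Car11 site into Dbp. Under it Dbp had HA-EZH1 peaks in 12 of 18 libraries, 3 each at 12, 16, 28 and 32 h (exact test, adjusted p = 0.00466), and 46.1% of the 5980 genes tested were called. SUZ12 peaks fell on 7 libraries, 3 at 12 h, 1 at 16 h and 3 at 28 h (exact test, adjusted p = 0.0359, 25.6% of 6027 genes called). SUZ12 libraries of 12 h and 28 h stood apart at all bound promoters too, with median folds of 8.34 to 8.53 and 11.40 to 12.96 against 3.43 to 5.27 at the other times, and the part of this in the result was not tested. H3K27me3 peaks fell on 15 libraries, all but those of 12 h (exact test, adjusted p = 0.0242, 33.5% of 7437 genes called). The weak Car11 peak in replicate 2 of 12 h ended -5.439 kb from the Dbp TSS, outside the window, and with it the 16 libraries would be beyond the range tested. The H3K27me3 libraries of 12 h also had the lowest median promoter folds, 2.39 to 2.46 against 3.24 to 3.68 at the other times, whose part in the result was not tested. The 3 calls held without any 1 of the 18 libraries (exact test, adjusted p of at most 0.00446, 0.0482 and 0.0283 in the same order). Since the window was chosen on these same libraries, the calls and this check describe a pattern already seen. They are no independent test of it. Bio-EZH1, with 17 libraries, was not in the range.

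Few of the other clock genes were bound in Bio-EZH1 and SUZ12, at shares near those of all genes. Of 17 core clock genes 3 were bound at 1 or more time points in Bio-EZH1, against 12.5% of all protein-coding genes. They were Npas2, the paralog of Clock, and the nuclear receptor gene Rora, both at all 6 time points with median folds of 22.2 and 7.39, and Rorb at 2. SUZ12 bound the same 3 genes (15.1% of protein-coding genes bound). In HA-EZH1 4 of the 17 genes were bound, against 10.1% of protein-coding genes. They were Clock, Nr1d1 and Rora at 1 time point each and Bhlhe41 at 2. Per1, Per2, Per3, Cry2 and Ciart had no promoter peak in any list, and Cry1 had a Bio-EZH1 peak in 5 libraries and a SUZ12 peak in 2. Arntl, the gene of BMAL1, had a Bio-EZH1 peak in 1 library and none in SUZ12 or HA-EZH1. By ChIP with PCR the study reported EZH1α at the TSSs of Bmal1, Per1 and Per2, and by HA-EZH1 ChIP-seq its association with these genes. In muscle tissue it found no significant circadian EZH1α occupancy at Cry1, Dbp and Rev-erbα. Signal by PCR and called peaks are different measures. The HA-EZH1 lists come from ChIP-seq, yet Arntl, Per1 and Per2 had a promoter peak in 0 of 18 of them. This differs from the association that the study reported by HA-EZH1 ChIP-seq, and the reason was not tested.

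The C/EBP proteins are the bZIP family that binds related sites. Of 6 genes 2 were bound in each profile, Cebpa and Cebpe in Bio-EZH1, SUZ12 and H3K27me3 and Cebpb and Ddit3 in HA-EZH1. Of all protein-coding genes 12.5% were bound at 1 or more time points in Bio-EZH1, 15.1% in SUZ12, 24.4% in H3K27me3 and 10.1% in HA-EZH1. Cebpa, which directs fat and liver lineages, was bound at all 6 time points in Bio-EZH1 (median fold 11.8) and H3K27me3 (3.40) and at 5 in SUZ12 (3.72), close to the pattern of Hlf. Of 6 PAR bZIP target genes known from liver, brain and pituitary only Tshb, the thyrotropin beta chain activated by TEF in the pituitary, was bound, at 5 time points in SUZ12 and 6 in H3K27me3. Of the genes not bound by this rule, Cyp7a1 had a promoter peak in 14 H3K27me3, 9 SUZ12 and 1 Bio-EZH1 libraries. Nr1i3 had one in 4 H3K27me3 libraries and Alas1 in 2 HA-EZH1 libraries, while Pdxk and Por had none in any list.

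The genes most like Hlf were chosen by rank. Over the 72 libraries the mean absolute difference in rank from Hlf was 3.20 percentage points for Dkk1, a secreted Wnt antagonist, 3.52 for Gcm2, a transcription factor of the parathyroid, and 3.58 for Sycp2l, against a median of 70.4 over all protein-coding genes. Each of the 3 had a promoter peak in all 18 Bio-EZH1, SUZ12 and H3K27me3 libraries and in 0 HA-EZH1 libraries, which the choice by rank itself brings about. Gcm2 (chr13:41101427-41111035) and Sycp2l (chr13:41114307-41174351) are neighbours and share peaks. The libraries share list length and background, so the likeness has no p-value.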

How the data were processed

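ChIP-seq peak lists of 72 libraries were analysed, 4 profiles at 6 time points with 3 replicates each, grouped by their sample labels. The authors used BBDuk for trimming and BWA 0.7.17 for alignment to mm10 and, for the spike-in, to BDGP6, parted the reads with disambiguate, removed duplicates with Picard, filtered with SAMtools 1.7 and called peaks in each library with MACS2 2.2.4. The filter applied to the lists afterwards is not given in the sources used here. The deposited fold of a peak is the ratio of its signal to the modelled background. The deposited q-value is on the −log10 scale, and the largest was 0.0500 in the narrow lists and 0.1000 in the broad H3K27me3 lists. The deposited summit offset of narrow peaks gave summit positions. Folds are not calibrated by the spike-in, and since the lists hold no read counts the depth is unknown and the replicate spread is the only error. The SUZ12 lists carry names that could stand for a streptavidin pulldown. The labels were followed, and if the lists were exchanged the Bio-EZH1 and SUZ12 values would be too.

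Genes came from GENCODE M21 on GRCm38, autosomes and X, and 19 mitochondrial peaks were left out. A promoter peak overlaps the 3 kb on either side of the TSS by any length, a body peak overlaps the gene record only, and the rank is the percent of peaks in the list with a lower fold. Presence over time was tested with an exact test (sum over time points of the squared number of libraries, genes with peaks in 3 to 15 of 18 libraries). Folds of genes with a promoter peak in all 18 libraries were tested as log2 values, centred on the library median, with limma 3.58.1 in R 4.3.3, and p-values were adjusted by Benjamini-Hochberg over all genes of a profile. P-values measure the spread between these libraries. On simulated folds with 200 genes shifted by 1 log2 unit at 24 h, the F test called 190 of 200 in Bio-EZH1, 160 in SUZ12 and 199 in H3K27me3. The spans at Hlf were smaller than this shift (0.44, 0.63 and 0.14 in the same order). The simulation therefore does not show how often changes of that size would be called.

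The members and lists were chosen with earlier results of these data known. Named were the 4 genes, the 3 protein-coding genes most like each gene with a promoter peak in 6 or more of the 72 libraries, genes with a TSS within 10 kb, and the lists of clock, C/EBP, target, Polycomb, housekeeping and muscle genes. Alternatives were windows of 1 and 5 kb, stricter q-values, all transcript TSSs, an overlap of 200 bp, equal list lengths, uncentred folds, ranks, genes with peaks in at least 9 libraries, a replicate block and leaving out libraries. The H3K27me3 result of the core clock list is not reported here.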

Additional observations from a re-analysis of the deposited data

How the results depend on the processing

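The counts of libraries and bound time points at Hlf, Tef and Nfil3 held under each alternative, except that with TSSs of every transcript Tef had a promoter peak in 1 HA-EZH1 library. For Dbp the 5 kb window, which takes in Car11, gave 17 Bio-EZH1, 7 SUZ12, 15 H3K27me3 and 12 HA-EZH1 libraries. With this window, chosen for the test after the peaks had been seen, the exact test called 1 of the 4 genes, Dbp. It did so in SUZ12, H3K27me3 and HA-EZH1, where it called 25.6, 33.5 and 46.1% of all genes tested in the same order. The HA-EZH1 count at Dbp was 0 with a 1 kb window and 0 with equal list lengths.

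The Hlf fold over time in Bio-EZH1 passed the test without centring (adjusted p = 0.0223, limma), as did 2090 of 2340 genes, and on ranks (0.0205), as did 1840. The leave-one-out range was 0.0063 to 0.238 for Bio-EZH1, 0.000164 to 0.168 for SUZ12 and 0.00448 to 0.0411 for H3K27me3. On ranks SUZ12 (adjusted p = 0.305, limma) and H3K27me3 (0.159) no longer passed. Without all libraries of 16, 24 or 32 h, choices made after seeing the data, SUZ12 gave adjusted p = 0.545, 0.0537 and 0.0532 (limma). The 24 h against 16 h difference in Bio-EZH1 was called without centring (0.71) and on ranks (6.86 percentage points), where 1248 of 2340 genes were called higher and the median of all genes was up by 4.53 points. Lists of 24 h were longer than those of 16 h (15046 to 19123 peaks against 8969 to 9229), and the part of list length in the rank call was not tested. In SUZ12 it lost its call without centring (0.49, adjusted p = 0.0725, limma), with genes seen in at least 9 libraries (0.44, adjusted p = 0.158) and on ranks (8.13 percentage points, adjusted p = 0.955). Leave-one-out differences were 0.20 to 0.37 in Bio-EZH1, 0.51 to 0.70 in SUZ12 and 0.07 to 0.13 in H3K27me3. No alternative turned a direction.

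Replicate numbers did not pair the libraries (mean correlation of same-numbered deviations -0.00568 in Bio-EZH1, -0.0178 in SUZ12 and 0.00261 in H3K27me3). With the replicate block the adjusted p over time was 0.101 in Bio-EZH1, 0.0331 in SUZ12 and 0.0252 in H3K27me3 (limma), the 24 h against 16 h differences stayed at 0.26, 0.61 and 0.10, and no call changed. The causes of these shifts were not tested. The unknown depth limits every absence to peaks that reached the caller's threshold.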
